A study of Mus musculus with 14 samples.

Results

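miR-143 and miR-145 are a pair of microRNAs made from neighbouring hairpins, and the rows mmu-miR-143 and mmu-miR-145 are 2 of the 1046 names in the deposited mouse table. Both were picked by name and followed through all 14 tissue libraries. The table also lists the star name of each hairpin, miR-143* and miR-145*, and these are used beside the members. A star marks the arm of a hairpin that the older naming took as the less abundant one.

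The 14 libraries came from colon, ovary, stomach, lung, uterus, small intestine, spleen, kidney, oesophagus, heart, brain, liver, cerebellum and pancreas of C57BL/6J mice, an inbred laboratory strain. Per the labels, total RNA was extracted with Trizol and RNA of several mice was pooled, giving 1 library per tissue. The labels name 5 mice for the harvest and 10 for the pool, and give neither age nor sex. With 1 library per tissue no test between tissues was possible, and every interval below is at 95% and covers counting error only. Levels are given as counts per 1000000 counts of the library (RPM), and as counts per 1000000 counts other than miR-143 (RPMX), because miR-143 fills much of some libraries.

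In the RefSeq annotation of GRCm38.p6, both hairpins lie inside the long non-coding RNA gene Carmn on chromosome 18, with no other microRNA gene between them. The pair is best known in smooth muscle, where serum response factor and myocardin drive its transcription. In smooth muscle the pair represses factors such as Klf4 and Elk1 and favours the contractile state. In the intestine it is known from the muscle and stroma rather than the epithelium.

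Library totals ran from 622132 counts in pancreas to 9341000 in small intestine. Counts other than miR-143 ran from 86545 in the colon library to 6502821 in kidney. The labels of colon and uterus did not match the intestinal epithelial names. miR-192, miR-194 and miR-215 together reached 1941 RPMX in the library labelled colon, 182504 in that labelled uterus and 458769 in small intestine. Both libraries are therefore named by their labels. Where they rest on the colon library, the spans and highest levels of the members are also given without it, as is their likeness to each other.

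The sequences shown here are those of the names whose pattern across tissues was most like that of the members, and they show which of these names are one measurement. They come from RefSeq on GRCm38.p6, which held all 6 names asked for, and capitals mark the seed, bases 2 to 8.
miR-199a-3p: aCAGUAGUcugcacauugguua
miR-199b: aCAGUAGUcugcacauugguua
miR-199a-5p: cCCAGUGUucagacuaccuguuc
miR-27a: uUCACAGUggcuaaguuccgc
miR-28: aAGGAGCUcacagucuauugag
miR-200c: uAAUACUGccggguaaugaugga
The entries used for miR-199b, miR-27a, miR-200c and miR-28 are those RefSeq calls miR-199b-3p, miR-27a-3p, miR-200c-3p and miR-28a-5p. The 6 names hold 5 distinct sequences and 5 distinct seeds, because miR-199a-3p and miR-199b are identical.

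miR-143 outnumbered all other names together in 7 libraries, and its level spanned a far wider range on that scale than as a share. For each count of any other name there were 76.1 counts of miR-143 in the library labelled colon and 6.76 in ovary. The same ratio stood at 2.36 for stomach, 1.57 for lung, 1.32 for the library labelled uterus, 1.16 for small intestine and 1.07 for spleen. Kidney had 0.420, oesophagus 0.297 and heart 0.273. Brain, liver, cerebellum and pancreas lay lowest, with 0.0675, 0.0654, 0.0475 and 0.0418. In bulk tissue, fewer cells of a type and less RNA per cell cannot be told apart in such levels.

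In RPMX the order of miR-143 was resolved beyond counting error at every step, since none of the 13 neighbouring pairs had an interval that held 1. The largest step was the colon library over ovary, at 11.3-fold (11.25 to 11.28). The smallest was brain over liver, at 1.03-fold (1.03 to 1.04). The highest library stood 1819-fold above the lowest on this scale. As a share of the total the same libraries differed by 24.6-fold, since no share can exceed the whole. Without the library labelled colon the span was 161-fold, and without those labelled colon and ovary it was 56.4-fold.

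In RPM, miR-143 reached 987030 in the library labelled colon, 871053 in ovary and 702295 in stomach. Lung had 611240 RPM, the library labelled uterus 568385, small intestine 536009 and spleen 517917. Kidney had 295579 RPM, oesophagus 228951 and heart 214157, followed by brain with 63207, liver with 61408, cerebellum with 45349 and pancreas with 40149. The order of the libraries was the same on both scales, and had to be. For miR-143, RPMX rises with RPM by definition, so the shared order is no second check. miR-143 ranked first in its library in the 7 highest libraries, second in kidney and oesophagus, and no lower than 6th, in pancreas.

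miR-145 was a scarce name next to its partner, with 27328 counts in all libraries against 36799147 of miR-143. Stomach held most, with 11827 counts, which is 4709 RPMX (4624 to 4794). Small intestine followed with 1085 RPMX (1054 to 1116), oesophagus with 928 (899 to 958) and the library labelled colon with 924 (733 to 1150.5), the last from only 80 counts. The libraries with gut labels thus took the 4 highest places for miR-145, and stomach, small intestine and oesophagus the first 3 with the colon library left out.

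The library labelled uterus held 525 RPMX of miR-145, lung 421, kidney 316 and spleen 239. Heart held 130.3 RPMX (121 to 140.2) and brain 118 (109 to 127.8). At the low end, ovary held 37.6 RPMX (18.8 to 67.3, 11 counts), and cerebellum 36.9 (26.4 to 50.3, 40 counts). Pancreas held 10.0 (3.69 to 21.9, 6 counts) and liver 8.56 (6.38 to 11.3, 51 counts). Heart, a muscle organ, lay at 0.414 times the median of the other 13 libraries in RPMX, but at 2.08 times with median-of-ratios size factors. With either of these it lay below all 4 libraries with gut labels. In RPM, heart held 102 and so lay above the colon library with 12.0. Within its library miR-145 ranked highest in stomach, at 23rd.

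Of the 13 neighbouring pairs in the order of miR-145, 4 were not apart beyond counting error. These were oesophagus over the colon library at 1.004-fold (0.805 to 1.27), heart over brain at 1.11-fold (0.989 to 1.24), ovary over cerebellum at 1.02-fold (0.472 to 2.02), and pancreas over liver at 1.17-fold (0.411 to 2.73). The highest library stood 550-fold above the lowest (418 to 739).

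The scale mattered most for the libraries rich in miR-143. In RPM, miR-145 was again highest in stomach with 1402 RPM, ahead of oesophagus with 716 and small intestine with 503.4. The library labelled colon then stood in the eleventh place, with 12.0 RPM, and ovary came last with 4.85 RPM. The other libraries held 226 RPM (uterus by its label), 222.4 (kidney), 164 (lung), 115 (spleen), 110.4 (brain), 102 (heart), 35.3 (cerebellum), 9.64 (pancreas) and 8.04 (liver). On this scale 6 of the 13 neighbouring pairs were not apart.

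**Figure D1:**
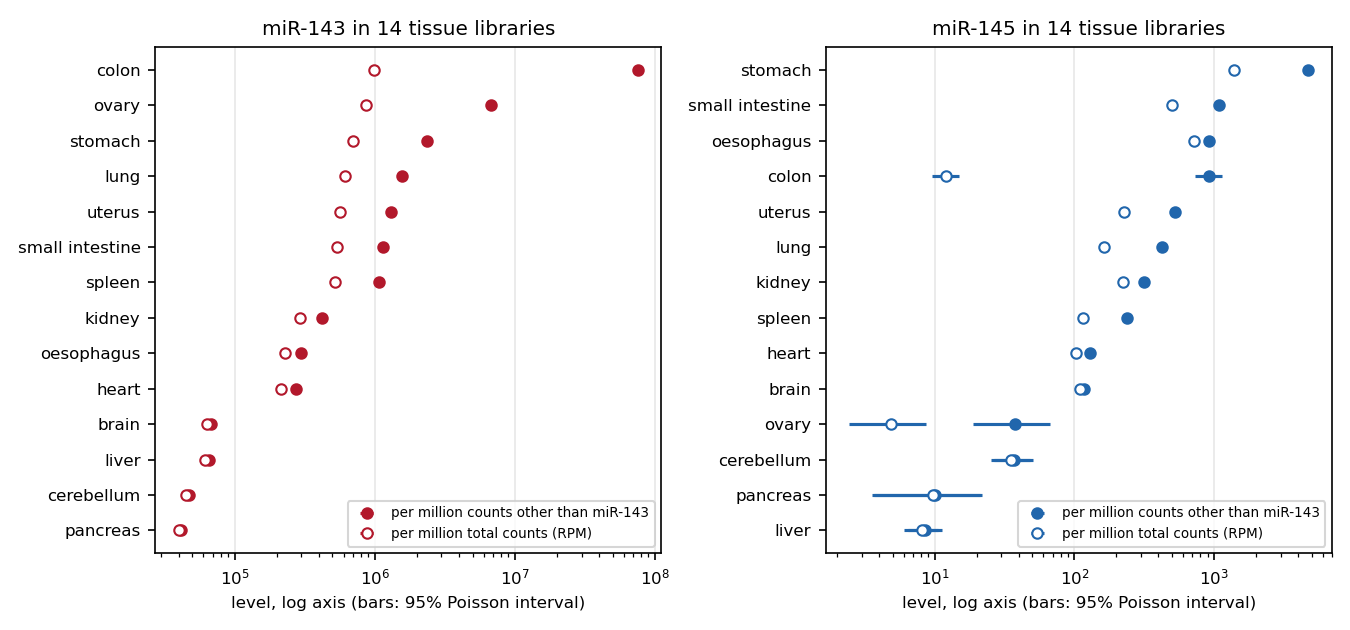
Level of miR-143 (left) and miR-145 (right) in each of the 14 libraries on log axes, in RPMX (filled) and RPM (open), with 95% Poisson intervals as bars. Libraries run down from the highest filled value. The colon and ovary libraries are the top 2 for miR-143, whereas stomach leads for miR-145 and ovary is eleventh.

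A rule of size stood in for a test. A name was called high in a library at 4 times or more the median of the other 13 libraries, with 1 RPMX added to both and at least 100 RPMX in that library. Levels were in RPMX, and 457 names with 10 or more in some library were tested. A matching rule for low levels, with at least 100 RPMX in the median, was added after the values were seen.

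miR-145 was called high in stomach, at 19.6-fold, where 9.41% of all names were called, and in small intestine, at 4.52-fold, where 6.56% were. Without the ovary, pancreas or cerebellum library, stomach alone was called. Oesophagus and the colon library fell just short, at 3.87-fold and 3.85-fold. Oesophagus was past the limit with median-of-ratios factors, at 4.13-fold, and in RPM, at 6.43-fold, while the colon library stood at 0.112 times the median of the others in RPM. miR-143 was called high in the colon library at 181.4-fold (7.88% of names called), in ovary at 16.1-fold (2.84%) and in stomach at 5.62-fold. The stomach call ended under other scalings, with miR-143 at 2.19 times the median of the others by median-of-ratios factors and 2.55 times with totals without the 5 most abundant names, whereas colon and ovary stayed past the limit. It also ended without the pancreas or cerebellum library, and lung was called without the colon or ovary library. In RPM no library was past the limit for miR-143. In RPMX with all libraries, stomach was the only library in which both members were called high, and both star names were called high there too.

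Low calls met both members in pancreas, cerebellum and liver. miR-143 lay 25.7-fold below the median of the others in pancreas, 22.6-fold below in cerebellum and 16.4-fold below in liver. miR-145 lay 28.7-fold, 8.35-fold and 33.1-fold below in the same libraries. The rule called 16.2% of names low in pancreas, 8.32% in cerebellum and 7.88% in liver. In brain miR-143 was called low, at 15.9-fold below (5.47% of names), while miR-145 was not, at 0.375 times the median of the others. Median-of-ratios size factors, compared with totals without miR-143, moved all levels of pancreas by 3.03 and those of lung by -1.38 on the log2 scale, relative to the median library. With them miR-143 stood at 0.477 times the median of the others in pancreas, 0.255 in liver, 0.0886 in brain and 0.0804 in cerebellum, so that the first 2 were no longer past the limit. miR-145 stood at 0.464 times the median of the others in pancreas, 0.262 in cerebellum and 0.148 in liver, so that only liver stayed past it.

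Ovary was the only library in which one member was called high and the other low, in RPMX. There miR-143 was called high, as above, and miR-145 low, at 8.20-fold below the median of the others (10.1% of names called low). miR-145 was also below the median of the others under other scalings, at 0.576 times by median-of-ratios factors and 0.261 times with totals without the 5 most abundant names, both short of the 4-fold limit. miR-143 stood at 30.6 and 13.6 times under the same scalings. These miR-145 values rest on 11 counts. Opposite sides of the median, without both calls, were also seen in oesophagus, with miR-143 at 0.276 times and miR-145 at 3.87 times, in kidney, with 0.391 and 1.32 times, and in spleen, with 2.56 and 0.759 times.

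The ratio of both members within a library needs no total, and it differed between libraries by more than 2 orders of magnitude. Oesophagus had 320 counts of miR-143 per count of miR-145 (310 to 330), stomach 501 (492 to 510) and brain 573 (528 to 622). The ratio was 1065 in small intestine, 1286 in cerebellum, 1329 in kidney, 2092 in heart and 2510 in the library labelled uterus. Lung had 3730, pancreas 4163 (1912 to 11345), spleen 4489 and liver 7640 (5810 to 10261). The remaining libraries stood far off, with 82325 in that labelled colon (66147 to 103823) and 179533 in ovary (100338 to 359646).

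The highest ratio was 561-fold above the lowest (313 to 1125). Without the colon and ovary libraries it was 23.9-fold, from oesophagus to liver, and without those labelled colon and uterus it was again 561-fold. Sequence-dependent capture differs between names in small RNA libraries, so the ratios are read here between libraries and not as numbers of molecules.

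miR-143*, the other arm of the same hairpin, did not share the excess of miR-143. Stomach held 2043 counts of it, small intestine 1304, the library labelled uterus 794, oesophagus 774 and kidney 412. Spleen held 291, heart 204, brain 61, liver 36 and cerebellum 12. The colon library, with 6586033 counts of miR-143, held 11 of miR-143*, and ovary, with 1974868, held 2. In RPMX, stomach stood at 813, small intestine at 301, the library labelled uterus at 211 and oesophagus at 191.1. The colon library followed with 127 (63.4 to 227), spleen with 124.4 and lung with 96.6, while ovary, at 6.84 (0.828 to 24.7), was near liver at 6.05. Pancreas had none, which allows up to 5.02 RPMX on a floor of 3 counts, with an exact Poisson upper limit of 6.18 RPMX.

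In counts of miR-143 per count of miR-143*, oesophagus was lowest with 1553 (1448 to 1669) and lung highest of the other libraries with 16276 (14274 to 18643). The colon library reached 598730 (334621 to 1199389) and ovary 987434 (273350 to 8153566). Pancreas had at least 8326 on a floor of 3 counts, and the exact lower limit there was 6771. Both of these intervals lie wholly above the values of the 11 other libraries with counts of miR-143*.

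Other hairpins gave the background for this. In the colon library 31 hairpins had 100 or more counts over both arms there and in at least 5 other libraries. Of these, 2 (6.45%) had a name-to-star ratio 10-fold or more above the median of the others, with 0.5 added to each arm. They were miR-143 at 86.6-fold and miR-29a at 11.9-fold, whose star name had no counts. In ovary 2 of 29 hairpins did so (6.90%), namely miR-143 at 119-fold and let-7b at 19.1-fold. Both rules were chosen after the values of the members were seen.

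miR-145 showed a different arm pattern, in which the star name overtook it in some libraries. miR-145 exceeded miR-145* by 16.8-fold in brain (11.9 to 24.3), 8.72-fold in stomach, 6.16-fold in lung, 5.87-fold in heart and 4.45-fold in small intestine. The excess was 3.78-fold in oesophagus, 3.40-fold in kidney, 2.49-fold in the library labelled uterus, and 1.82-fold in both spleen and cerebellum. In the library labelled colon miR-145 stood at 0.452 times miR-145* (0.343 to 0.592, 80 and 177 counts). In liver it stood at 0.411 times (0.291 to 0.574, 8.56 and 20.8 RPMX) and in ovary at 0.344 times (0.156 to 0.700, 11 and 32 counts). Pancreas had 6 counts of miR-145 and none of miR-145*.

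Across the 46 hairpins with 10 or more counts of each arm in at least 8 libraries, the name-to-star ratio of miR-143 spanned 385-fold, wider than that of all 44 hairpins other than this pair. That span leaves out ovary and pancreas, where miR-143* was under 10 counts, and it rests on the colon library. Without colon it was 10.5-fold, and 16 of the 44 were wider. The ratio of miR-145 spanned 48.8-fold with and without colon. With all libraries 4 of the 44 were wider, namely let-7d, miR-322, miR-148a and miR-872, and without colon 3 were. The median of the 44 was 8.49-fold in both cases. A ratio on both sides of 1, as for miR-145, was found in 7 of the 44.

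**Figure D2:**
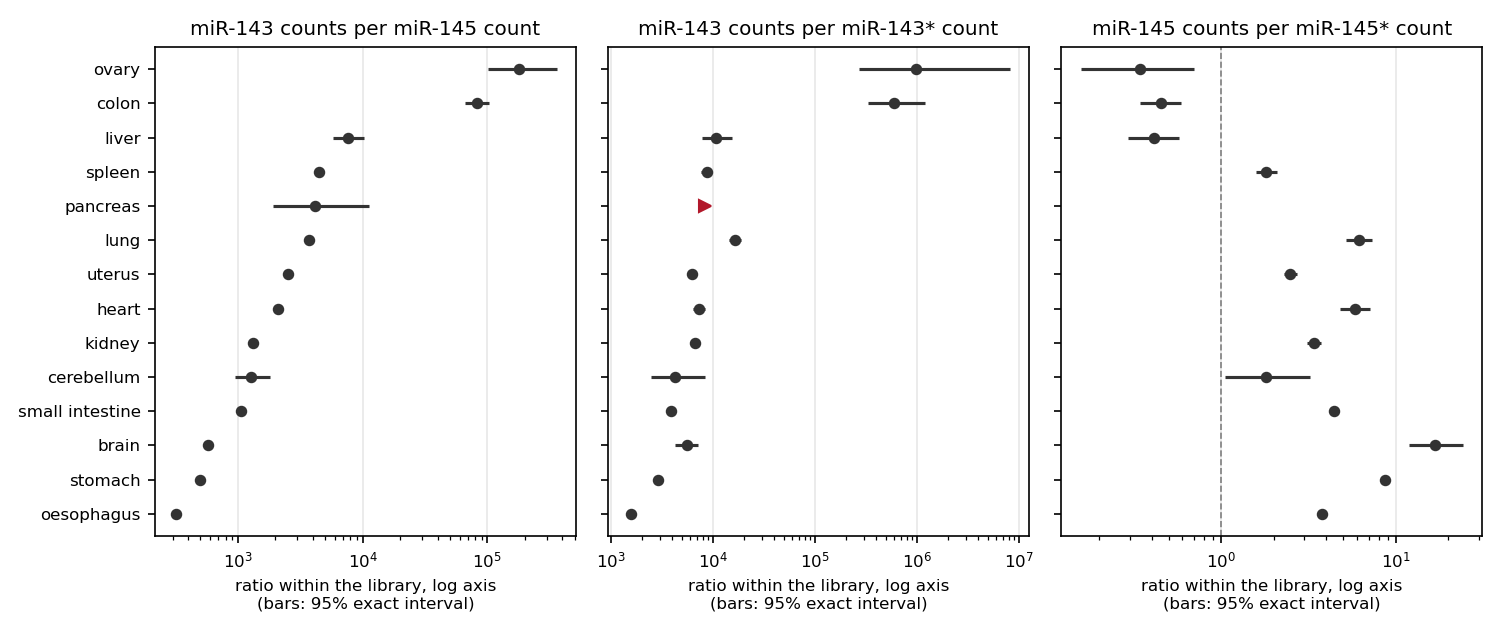
Counts of miR-143 per count of miR-145 (left), miR-143 per miR-143* (middle) and miR-145 per miR-145* (right) within each library, on log axes with 95% exact intervals. The red triangle marks the lower bound for pancreas, and pancreas is left out on the right, where miR-145* had no counts. Ovary and colon lie far to the right in the first 2 panels, and liver joins them left of the dashed line at 1 in the last.

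miR-143* stayed in closer proportion to miR-145. It stood between 0.104 times miR-145 in brain (0.0785 to 0.135) and 0.706 times in liver (0.448 to 1.10), a 6.79-fold span over the 13 libraries with counts of both. The colon library, at 0.138 (0.0660 to 0.259), and ovary, at 0.182 (0.0196 to 0.833), lay inside that span. Against miR-145*, the same arm stood at 0.0621 in the colon library (0.0305 to 0.114) and 0.0625 in ovary (0.00726 to 0.245), compared with 0.290 in liver and 0.545 to 1.74 in the other 10 libraries. In the colon library miR-145* reached 2045 RPMX (1755 to 2370), its highest level on that scale, and was called high at 21.8-fold, while miR-143* stood at 127 RPMX (63.4 to 227). In RPM miR-145* had 26.5 in the colon library, 0.997 times the median of the others, and was highest in oesophagus with 189. Without the colon library it was highest in stomach, at 539.9 RPMX.

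Across the 14 libraries, miR-143* and miR-145 had a Spearman's rho of 0.965, miR-145 and miR-145* 0.859, and miR-143* and miR-145* 0.846. miR-143 and miR-145 had 0.648, and miR-143 and miR-143* 0.600. Without the colon and ovary libraries these last 2 values were 0.860 and 0.888, over 12 libraries. For miR-143 and miR-145 the value was 0.643 without the colon library alone and 0.824 without ovary alone. With RPM, miR-143 and miR-145 had 0.244 over 14 libraries, and 0.804 without colon and ovary. These are descriptions only, since the points share their library, its depth and its total.

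**Figure D3:**
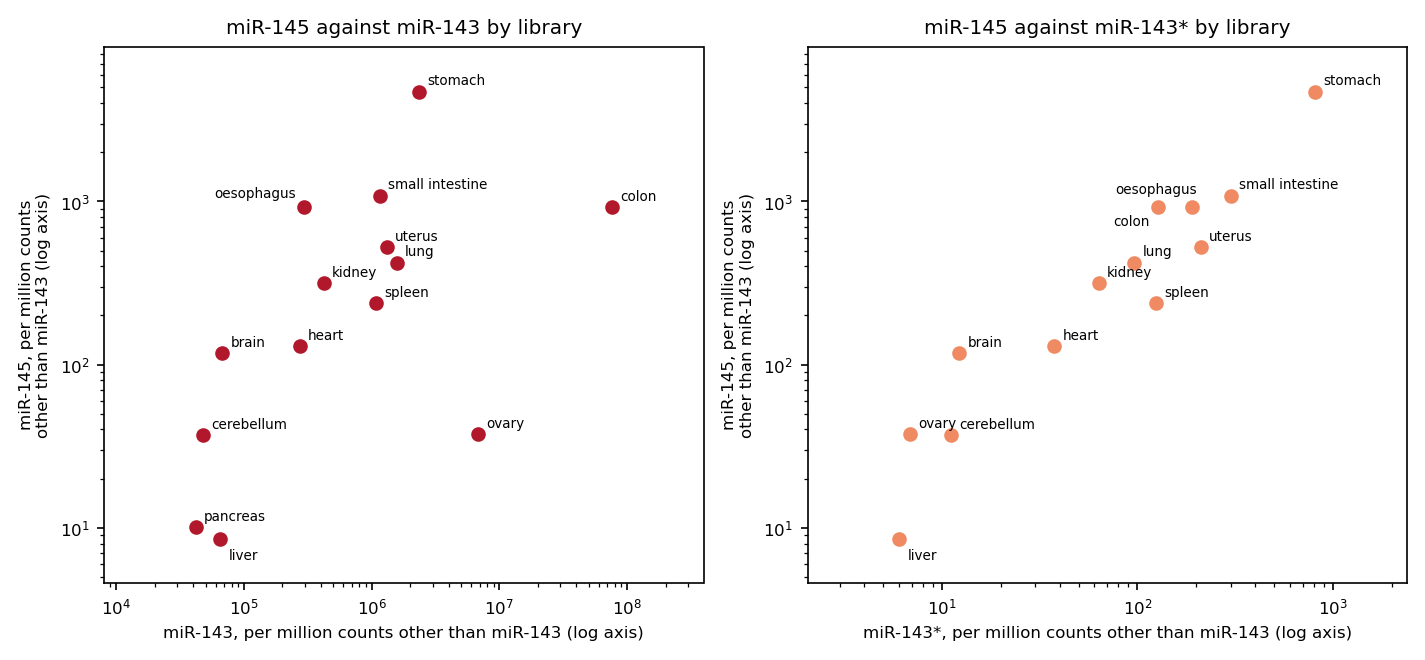
Level of miR-145 against miR-143 (left) and against miR-143* (right), all in RPMX on log axes, 1 point per library. Colon and ovary stand to the right of the other 12 libraries on the left, and lie among the 13 libraries with miR-143* counts on the right.

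Other clustered microRNAs gave a scale for the spread of the ratio between the members. Of 26 pairs of cluster neighbours, 25 could be measured, and the pair of miR-212 and miR-132 could not because the table names both arms of miR-212. Over the 24 pairs other than miR-143 and miR-145, the highest within-library ratio stood between 2.12-fold and 2581-fold above the lowest, with a median of 14.1-fold. Only miR-215 and miR-194 had a wider span than the 561-fold of the members, and miR-195 with miR-497 came next at 106.3-fold. Without the colon and ovary libraries, 4 pairs were wider than the 23.9-fold of miR-143 and miR-145, beside a median of 13.4-fold. Several of these names have more than a single locus or near-identical relatives, so their reads may be mixed, and 5 pairs had libraries left out for a count of 0.

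**Figure D4:**
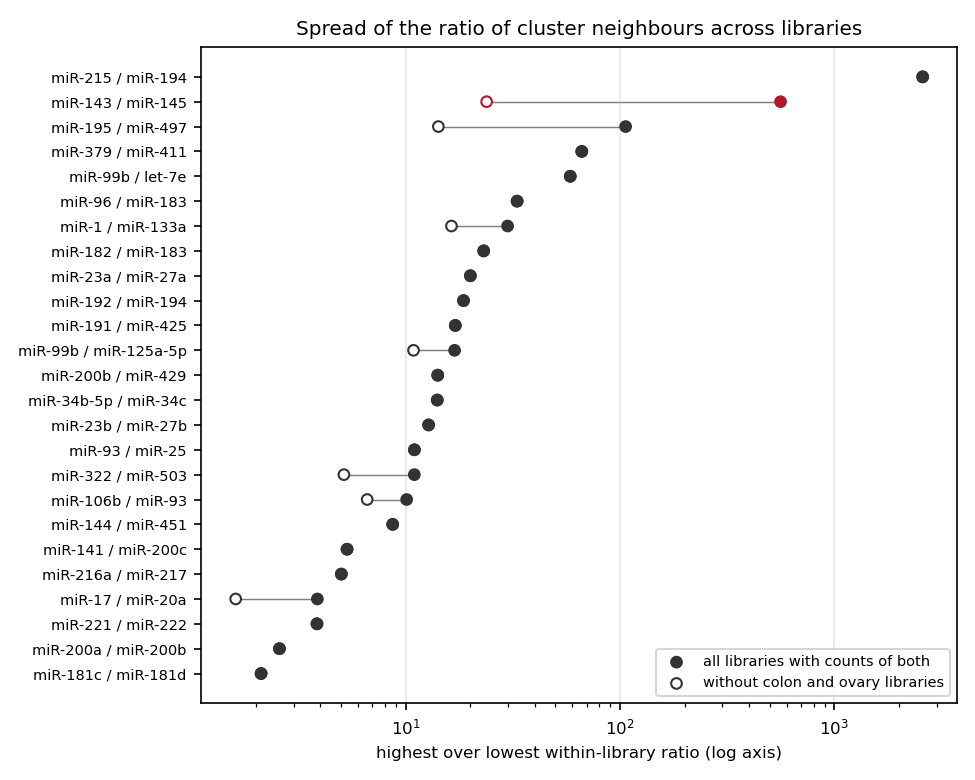
Highest over lowest within-library ratio of cluster neighbours on a log axis, with all libraries that hold both names (filled) and without the colon and ovary libraries (open, hidden where both values are equal). The pair of miR-143 and miR-145, in red, drops from 561-fold to 23.9-fold when both libraries are left out.

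Names with the most similar pattern were sought among 147 names with a mean of 100 or more RPMX. For miR-143 they were miR-199a-3p and miR-199b, both with a rho of 0.829, then miR-27a (0.789), miR-145* (0.785) and miR-199a-5p (0.767). The median rho of the 147 names was 0.209, and miR-145 came 16th. The miR-199 names are known from mesenchymal cells. The first 2 share the sequence printed above, and their counts stood in a ratio of 1.96 to 2.02 in all 14 libraries, so they are a single measurement.

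In RPMX miR-199a-3p shared its highest library with miR-143, whereas in RPM it was highest in oesophagus, with 1372, and had 77.3 in the colon library. It reached 5962 RPMX in the colon library and 2470.5 in lung, with a median of 532 and a lowest value of 5.54 in cerebellum. miR-27a, from a cluster with miR-23a and miR-24, reached 1699 in lung and 1017 in the colon library, against 7.39 in cerebellum. miR-27a and miR-199a-5p remained among the 5 when colon and ovary were left out, joined by miR-27b, miR-143* and miR-145.

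For miR-145 the nearest names were miR-143* (0.965), miR-145* (0.859), miR-200c and miR-28 (both 0.842) and miR-199a-5p (0.824), beside a median of 0.407. miR-143 came 32nd. The choice depended on the scaling, and only miR-200c was kept by median-of-ratios factors. miR-199a-5p was highest in stomach, like miR-145, at 766 RPMX, with 555 in the colon library and 1.67 in pancreas. miR-28 varied less, between 16.7 RPMX in pancreas and 393 in the colon library.

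miR-200c belongs to the epithelial miR-200 family, and the family was measured as a list beside miR-145. The list of 5 members summed to 29609 RPMX in small intestine, 22267 in the library labelled uterus and 20020 in stomach, and to 41.5 in cerebellum. All 5 were called high in stomach, small intestine, the library labelled uterus and lung. In the uterus library 4.16% of all names were called high, and in lung 14.2%. In kidney and oesophagus the list summed to 11768 and 7954 RPMX. The median folds of the 5 there were 16.2 and 6.71, beside 1.31 and 1.33 over all names. The library labelled colon had 1479 RPMX and none of the 5 called high, beside 924 RPMX of miR-145. Whether the share of epithelium bears on the level of miR-145 was not tested.

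**Figure D5:**
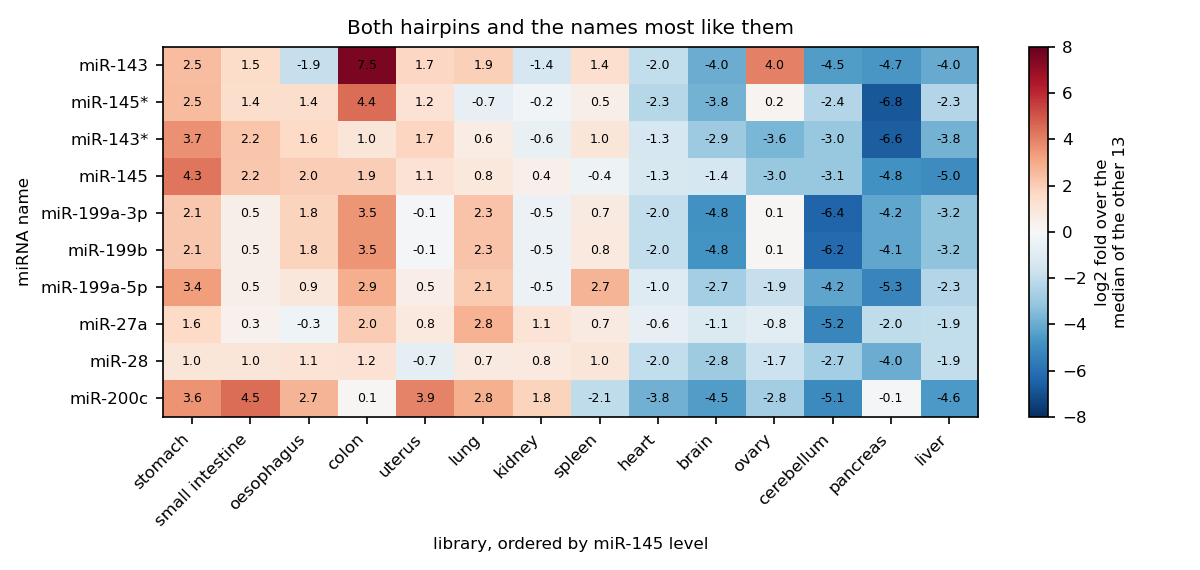
Log2 fold over the median of the other 13 libraries, with 1 RPMX added to both, for the 4 arms of the hairpins and the names most like them. Libraries run from the highest miR-145 level on the left to the lowest on the right. The row of miR-143 has its deepest red under colon and is red under ovary, where miR-145 is blue. Both star names had no counts in pancreas, so their values there reflect the added 1 RPMX.

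The mesenchymal list, both arms of miR-199a, miR-199b and miR-214, was measured beside the members because it marks another stromal programme. Its 6 members summed to 10041 RPMX in the library labelled colon, 4375 in stomach, 4247 in lung and 2936 in oesophagus. The sums were 971 in ovary, 111 in liver, 50.2 in pancreas, 49.0 in brain and 13.8 in cerebellum. All 5 tested members were called high in the colon library (7.88% of all names), and 4 of 5 in stomach (9.41%) and in lung (14.2%), while miR-214* never reached the minimum for testing. With the identical miR-199a-3p and miR-199b counted once, these were 4 of 4 in colon and 3 of 4 in stomach and in lung, and the sums were 7048 RPMX in colon, 3243 in stomach and 2998 in lung. miR-199a-3p, miR-199b and miR-199a-5p were also among the names most like miR-143 in these same libraries. Their calls where miR-143 is high therefore do not stand apart from that ranking. Without the colon library, stomach had the highest sum. The median fold of the 5 tested members was 11.6 in colon, 4.38 in stomach and 4.83 in lung, beside 1.0, 1.89 and 2.04 over all 457 names. In ovary, where 2.84% of all names were called high, none of the 5 was, with a median fold of 1.09 beside 0.456 over all names. With identical names counted once the median fold was 10.9 in colon, 7.29 in stomach, 4.57 in lung and 0.707 in ovary. As RPM the same list summed to 130.2 in the colon library and 1302 in stomach.

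A list of names linked to the state of smooth muscle cells was counted beside the members. It held miR-21, miR-221, miR-222, miR-26a, miR-24, miR-146a, miR-1 and miR-133a, of which miR-221 and miR-222 are known to favour the proliferative state. None of the 8 was called high in stomach or small intestine, where 9.41% and 6.56% of all names were. In the colon library 1 was, miR-133a at 243 RPMX from 21 counts, beside 7.88% of all names. So few calls lie near the share over all names. In oesophagus miR-1 lay at 98.2 times the median of the others, miR-133a at 14.2 times and miR-146a at 0.209 times. miR-1 and miR-133a are also striated muscle names, and were higher still in heart, at 109.7 and 90.5 times. miR-206, another striated muscle name, lay at 1868 times in oesophagus. The median fold of the list of 8 in oesophagus was 1.75, beside 1.33 over all names. In lung 5 of 8 were called high, beside 14.2% of all names. There miR-143, at 3.75-fold, fell just short of the limit, and miR-145 stood at 1.76-fold. miR-21, known from many stromal and immune cells, reached 37599 RPMX in stomach and 394 in pancreas. The median fold of the list was 1.59 in stomach and 1.83 in the colon library, beside 1.89 and 1.0 over all names.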

How the data were processed

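The authors deposited raw counts, 1 whole number for each mature miRNA name and tissue, in a single table whose 14 columns were matched to tissues by name. The sources used here name no aligner, miRNA release or genome build, nor how reads that fit several names were counted, so no coordinates are printed. Per the labels' protocols, RNA was extracted with Trizol, pooled and made into Illumina libraries.

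Counts were divided by the library total, or by the total without miR-143, and multiplied by 1000000. Levels have exact Poisson intervals, and ratios have exact conditional binomial intervals. Low counts limit miR-145 in pancreas, ovary, cerebellum, liver and colon. The rule of size was run on simulated counts for the small intestine library. It called 35 of 35 names raised 8-fold and 28 of 28 raised 16-fold. It called 0 of 35 raised 2-fold and 0 of 359 left unchanged. Before any raising, each simulated name had the same level in all libraries apart from Poisson error, and raised names had at least 100 RPMX. With folds set on either side of the 4-fold limit, this checks only that the rule runs as stated. Real spread between tissues was not simulated, and calls in shallower libraries are not given. Named were the members, their star names, the 5 names with the highest Spearman's rho to each, and list members. Members, lists and rules were chosen with earlier results of these data known. Alternatives were other scalings, limits, measures and pseudocounts, summed arms, and left-out libraries. Python 3.11.15, NumPy 2.4.6, pandas 2.3.3, SciPy 1.17.1 and matplotlib 3.10.9 were used. Member sequences are not reported here.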

Additional observations from a re-analysis of the deposited data

How the results depend on the processing

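No paired analysis was possible because each tissue had 1 library, so leaving out replicates and testing were not possible either. Leaving out the colon and ovary or the colon and uterus libraries, RPM for spans, likeness and miR-145*, arm spans without colon, and counting identical names once were chosen after seeing the data. The span of miR-143 from highest to lowest library, 1819-fold, became 871-fold with median-of-ratios factors, 1444-fold on totals lacking the 5 most abundant names, 24.6-fold with RPM, 161-fold without colon and without colon and uterus, 1602-fold without pancreas and 56.4-fold without colon and ovary. That of miR-145, 550-fold, became 110.3-fold with median-of-ratios factors and 289-fold with RPM. The span of their ratio, 561-fold, became 257-fold without ovary, 23.9-fold without colon and ovary and 181.4-fold with both arms summed. Their rho, 0.648, became 0.530 with median-of-ratios factors, 0.244 with RPM, 0.824 without ovary and 0.860 without colon and ovary. Stomach was lost as a high call of miR-143 without pancreas or cerebellum. Libraries calling miR-143 high numbered 3, but 7 at a 2-fold limit and 0 with RPM, where none could pass. For miR-145 they numbered 2, but 5 at a 2-fold limit and 1 at an 8-fold limit or without ovary, pancreas or cerebellum. Of the 5 names most like miR-143, 3 were shared with median-of-ratios factors, with Pearson's r and with a mean level of 10, and 2 with RPM and without colon and ovary. For miR-145, 1 was shared with median-of-ratios factors and with RPM, and 3 with totals lacking the 5 most abundant names, with Pearson's r and without colon and uterus. The cause of these changes was not tested. Of the values answering a comparison, 44 stayed within their interval or limit and 33 did not. A count of calling libraries that went from 3 to 2 was taken as staying within its limit. Of the values for single libraries, arm spans and the mesenchymal list, 10 stayed, 81 moved and 1 reversed. No called value of miR-143 or miR-145 in a single library changed direction under the 3 other scalings. That of miR-145* in colon, 21.8-fold, was 0.997-fold with RPM. Counts other than miR-143 were fewest in the colon library, at 86545, where 80 counts stand behind miR-145. Fewer counts of miR-145 stand behind pancreas (6), ovary (11), cerebellum (40) and liver (51).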
